A study of Mus musculus with 4 samples.

Results

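Cryab, which encodes αB-crystallin, was the most abundant of 10 heat shock chaperone transcripts in 2D-cultured AML12 cells, and its level in 3D-cultured cells was 0.337 of that, at 1132 ± 30.2 TPM in 2D against 381 ± 9.27 TPM in 3D (SD, n = 2 libraries each). Hspa8, the constitutive HSP70, had the opposite order, at 573 ± 37.0 TPM in 2D against 931 ± 44.7 TPM in 3D. The other members at or above 1 TPM were Hspb6, Hspb8, Bag3, Hsph1 and Dnajb1, and their levels in the cultures lay closer together. Hspb1, Hspa1a and Hspa1b, which are strongly heat-inducible genes in many cells, stayed under 1 TPM in every library.

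The 10 genes were chosen by name from the 31828 genes of the deposited table, with their TPM in 3D against 2D already known. Their values in that contrast are therefore a description and carry no test. TPM is a transcript's abundance corrected for its length and scaled to a fixed total in each library, so levels of different genes can be set side by side, but the TPM of a gene also depends on all others in its library. AML12 is an established hepatocyte line from the liver of a mouse that carried a transforming growth factor alpha transgene. The cells grew on a dish (2D) or inside Matrigel, a gel of basement membrane proteins (3D), and each culture gave 2 libraries. All cells received 1 mM hydroxyurea, which blocks DNA replication, over 24 h in the 2D culture and over 36 h in the 3D culture, so the culture and the length of treatment cannot be told apart. No library lacked the drug. The labels give replicate numbers but do not say whether the replicates were separate cultures, so the p-values below measure only the spread between these libraries, which may be technical.

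Of 8 hepatocyte markers, 4 passed the filter of a mean of at least 1 TPM. All 4 were higher in 3D, beside 23.4% of all genes tested. Their list summed to 67.0 to 67.4 TPM in 2D and to 258 to 276 TPM in 3D. Hnf4a was well above the filter in every library, but albumin (Alb) was at 0.819 and 1.20 TPM in 2D and at 12.7 and 10.0 TPM in 3D, and the 4 markers under the filter went both ways. Serpina1a and Fgb were listed at 0 in both 2D libraries and at no more than 0.0768 TPM in 3D. Cps1 was at 0.261 and 0.215 TPM in 2D and 0.0328 and 0.0727 TPM in 3D, and Apoa2 at 0.243 and 0.556 TPM in 2D and 0 and 0.240 TPM in 3D. In such bulk samples, fewer cells that express a gene and less RNA per cell cannot be told apart.

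Heat shock proteins are chaperones that keep other proteins from aggregating and help them to fold. Small heat shock proteins such as αB-crystallin hold unfolding proteins without using ATP, and the HSP70 machine then refolds them with the help of J proteins, which deliver the client, and of exchange factors, which release it. BAG3 links HSP70 to the small heat shock protein HSPB8 and so to the autophagy of damaged proteins, and the transcription factor HSF1 switches on many of these genes by binding heat shock elements, in which the unit NGAAN is repeated in alternating orientation.

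The sequences just before the start sites of the 3 members under 1 TPM are shown because these genes are the classic targets of that element. The RefSeq promoter table (GRCm38.p6) matched 8 of the 10 members, with 11 start sites. Cryab and Hspa8 had no entry. Within 250 bases before the start, on both strands, a pair of facing units was searched as GAANNTTC or TTCNNGAA, each of which reads the same on the other strand. It was found in 6 of the 11 promoters, of Hspb1, Hsph1, Hspb6, Hspa1a and Hspa1b, and in 12.8% of all 32851 promoters of that length. The 2 promoters of Hsph1 overlap and hold the same match, so the 6 do not count separate sites. Of the 2 promoters of Hspb6, 1 held no match. A stricter element of 3 alternating units, which contains such a pair, was found in 0 of the 11 and in 0.46% of all promoters. Both searches required the exact letters of every unit, so an element with a changed letter in a unit was not counted. The 0 of 11 therefore does not show that these promoters lack a longer element. The matches are a description of letters and not of binding. They are in capitals below, 5′ to 3′, in the 250 bases before the start of Hspb1 (chr5:135887669-135887918, plus strand), Hspa1a (chr17:34972157-34972406, minus strand) and Hspa1b (chr17:34959239-34959488, minus strand).
Hspb1: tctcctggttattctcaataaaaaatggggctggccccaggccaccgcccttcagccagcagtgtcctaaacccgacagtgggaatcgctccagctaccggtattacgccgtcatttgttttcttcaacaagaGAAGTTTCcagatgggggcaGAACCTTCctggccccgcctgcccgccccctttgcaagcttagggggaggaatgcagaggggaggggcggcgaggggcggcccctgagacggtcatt
Hspa1a: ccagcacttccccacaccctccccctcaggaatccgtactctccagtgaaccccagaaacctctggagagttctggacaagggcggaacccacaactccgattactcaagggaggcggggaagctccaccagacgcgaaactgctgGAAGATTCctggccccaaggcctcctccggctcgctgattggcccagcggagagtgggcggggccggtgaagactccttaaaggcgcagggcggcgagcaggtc
Hspa1b: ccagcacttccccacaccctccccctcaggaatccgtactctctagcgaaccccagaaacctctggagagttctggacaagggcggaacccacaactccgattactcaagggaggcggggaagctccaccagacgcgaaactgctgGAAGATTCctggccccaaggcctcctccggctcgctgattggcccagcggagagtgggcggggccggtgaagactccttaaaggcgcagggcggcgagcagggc
Hspb1 held 2 matches, which began 117 and 97 bases before the start. Hspa1a and Hspa1b each held 1, which began 104 bases before the start, and the windows of these neighbouring genes differed at 3 of 250 bases. In Hsph1 the match began 33 bases before the first start site. Hspb8, Bag3 and Dnajb1 held no match in these windows.

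The small heat shock proteins among the members were led by Cryab (ENSMUSG00000032060, chr9:50751325-50756636). Cryab was at 1111 and 1154 TPM in 2D and at 375 and 388 TPM in 3D. Both 2D libraries were thus far above both 3D libraries, and the libraries of each culture lay close together. By level, Cryab ranked 90th and 83rd of all genes in 2D and 361st and 351st in 3D. The difference was -1.57 ± 0.039 (SE of the limma fit) on the log2(TPM + 1) scale, 3D minus 2D. Of the 14116 genes tested, 171 had a more negative difference and 2.86% had one of larger absolute size.

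Hspb8 (HSP22, chr5:116408491-116422864) was at 132 and 127 TPM in 2D and at 117 and 116 TPM in 3D, a log2 difference of -0.15 ± 0.043. The 3D libraries were both a little below the 2D libraries. Hspb6 (HSP20, a muscle-enriched small heat shock protein, chr7:30552178-30555443) was at 82.4 and 89.8 TPM in 2D and at 48.1 and 69.8 TPM in 3D. The 3D libraries of Hspb6 were again both below, but on the log2 scale they differed from each other more than those of any other member above 1 TPM. Its log2 difference of -0.56 ± 0.18 therefore rested on which 3D library was used, and was -0.30 without 3D replicate 1 and -0.83 without 3D replicate 2. Hspb1 (HSP25, chr5:135887919-135889563) was listed at 0 and 0.259 TPM in 2D and at 0.0653 and 0.130 TPM in 3D, with overlapping groups. Hsp25-ps1, a processed pseudogene whose transcript is 99.8% identical to Hspb1 over 441 bases, lay between 0 and 0.347 TPM. The level of both together was at most 0.606 TPM in any library.

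**Figure D1:**
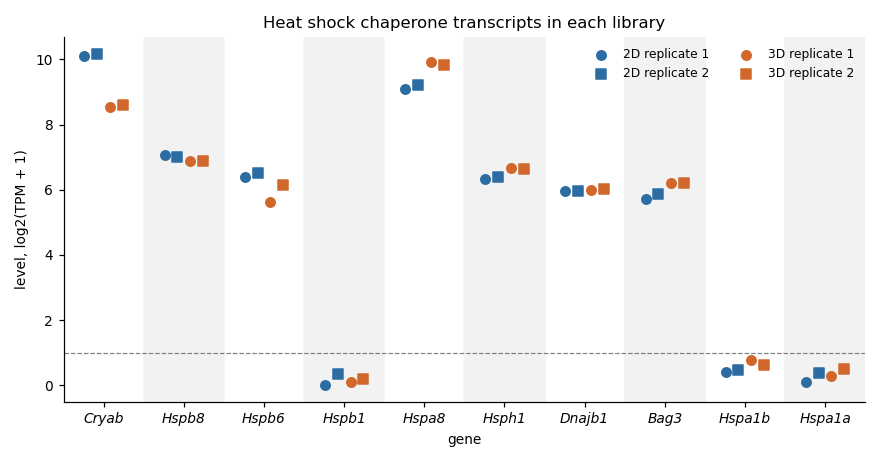
Level of each of the 10 genes, as log2(TPM + 1), in the 2D (blue) and 3D (orange) libraries, with replicate 1 as circles and replicate 2 as squares; the dashed line marks 1 TPM. Cryab and Hspa8 lie on top with opposite order of the cultures, and Hspb1, Hspa1a and Hspa1b lie under the line in every library.

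Among the HSP70 members, Hspa8 (HSC70, ENSMUSG00000015656, chr9:40800984-40810087) was at 546 and 599 TPM in 2D and at 963 and 900 TPM in 3D. Both 3D libraries were well above both 2D libraries, and the log2 difference was 0.70 ± 0.062. The inducible HSP70 genes Hspa1a (chr17:34969190-34972156) and Hspa1b (chr17:34956436-34959238) were far lower. Hspa1a was at 0.0743 and 0.293 TPM in 2D and at 0.207 and 0.426 TPM in 3D, with overlapping groups. Hspa1b was at 0.332 and 0.394 TPM in 2D and at 0.698 and 0.541 TPM in 3D, with both 3D libraries above. Their transcripts are 99.2% identical over 2201 bases, so the split of reads between them is uncertain, and their summed level still reached only 0.406 and 0.686 TPM in 2D and 0.905 and 0.967 TPM in 3D.

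The partners of HSP70 differed less between the cultures than Hspa8. Hsph1 (HSP105, an exchange factor of HSP70, chr5:149614287-149636376) was at 79.0 and 83.2 TPM in 2D and at 99.6 and 99.0 TPM in 3D, a log2 difference of 0.29 ± 0.047. Bag3 (chr7:128523616-128546981) was at 51.7 and 57.4 TPM in 2D and at 73.0 and 72.2 TPM in 3D, a log2 difference of 0.41 ± 0.066. In both genes the 3D libraries nearly coincided and lay above the 2D libraries. Dnajb1 (HSP40, the J protein most often paired with inducible HSP70, chr8:83608193-83612653) was at 61.1 and 60.9 TPM in 2D and at 62.5 and 63.4 TPM in 3D. Its log2 difference of 0.05 ± 0.045 was about as large as its standard error, and it differed least between the cultures of the 7 members above 1 TPM.

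Of the 7 members that passed the filter, 4 had both 3D libraries above both 2D libraries and 3 had both below. Such separation was common, since it held upward for 35.9% and downward for 41.6% of all genes tested. The median log2 difference of these 7 members was 0.05, beside -0.04 over all genes tested. The filter removed Hspb1, Hspa1a and Hspa1b, so these counts do not cover all 10 genes.

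The order of levels changed with the culture. In 2D it ran from Cryab through Hspa8 (573 TPM), Hspb8 (130 TPM), Hspb6 (86.1 TPM), Hsph1 (81.1 TPM), Dnajb1 (61.0 TPM) and Bag3 (54.5 TPM). In that order only Hspb6 and Hsph1 overlapped between libraries. In 3D it ran from Hspa8 through Cryab, Hspb8 (117 TPM), Hsph1 (99.3 TPM), Bag3 (72.6 TPM), Dnajb1 (63.0 TPM) and Hspb6 (59.0 TPM), and the libraries of Dnajb1 fell within the range of Hspb6.

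The make-up of the set shifted accordingly. The 10 transcripts summed to 2064 and 2172 TPM in 2D and to 1738 and 1709 TPM in 3D. Cryab made up 53.8% and 53.1% of that sum in 2D and 21.5% and 22.7% in 3D. Hspa8 made up 26.5% and 27.6% in 2D and 55.4% and 52.6% in 3D. The sum and these shares leave out the near-identical copies of Hspa8, described below. The main copy, Gm15459, was listed at 402 and 404 TPM in 2D and at 719 and 697 TPM in 3D. With it counted, the sums of the cultures lie closer together. The ratio of Cryab to Hspa8 within a library, which does not depend on the total the TPM are scaled to, was 2.03 and 1.93 in 2D and 0.389 and 0.431 in 3D. Against its relative Hspb8, Cryab had a ratio of 8.39 and 9.08 in 2D and of 3.21 and 3.34 in 3D. The ratio of Hspb8 to its partner Bag3 was 2.56 and 2.21 in 2D and 1.60 and 1.61 in 3D. All 3 ratios had both 2D libraries above both 3D libraries.

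**Figure D2:**
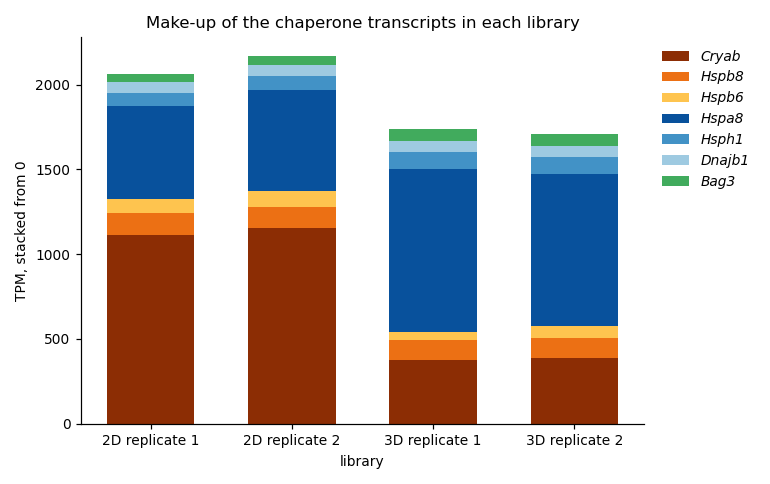
TPM of the 7 genes above 1 TPM, stacked from 0, in each of the 4 libraries. Cryab fills 53.1% to 53.8% of the 10-gene sum in 2D and 21.5% to 22.7% in 3D, and Hspa8 takes the largest share in 3D.

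The value of Hspa8 depends on how reads were split with a copy. Gm15459, a processed pseudogene on chromosome 5 (chr5:5781615-5783555), aligned to the whole coding sequence of Hspa8 in the GENCODE M21 transcripts, 1941 bases, with 5 differences and no gap. The longest stretch with no difference between them was 672 bases. A stretch of the coding sequence of Hspa8, bases 54 to 173 counted from the A of the start codon, is shown beside that of the copy, with the base that differs in capitals.
Hspa8: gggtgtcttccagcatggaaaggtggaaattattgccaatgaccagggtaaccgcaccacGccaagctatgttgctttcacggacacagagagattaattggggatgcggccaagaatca
Gm15459: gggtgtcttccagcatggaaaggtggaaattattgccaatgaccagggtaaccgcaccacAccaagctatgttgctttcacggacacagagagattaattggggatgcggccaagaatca
Gm15459 was listed at 402 and 404 TPM in 2D and at 719 and 697 TPM in 3D. Both 3D libraries were above both 2D libraries, as for Hspa8, and Gm15459 was called higher in 3D by 0.81 ± 0.035 (limma adjusted p = 0.000343). Since the reads of both genes are nearly the same, this is not independent of Hspa8. Of the summed TPM of Hspa8 and its 5 near-identical copies on the same strand, 56.2% to 59.6% was listed under Hspa8 in every library. That sum was 951 and 1004 TPM in 2D and 1686 and 1600 TPM in 3D, a ratio of 1.68 of 3D over 2D beside 1.63 for Hspa8 alone. With the sum in place of Hspa8, Cryab still had the higher level in 2D and the lower level in 3D.

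**Figure D3:**
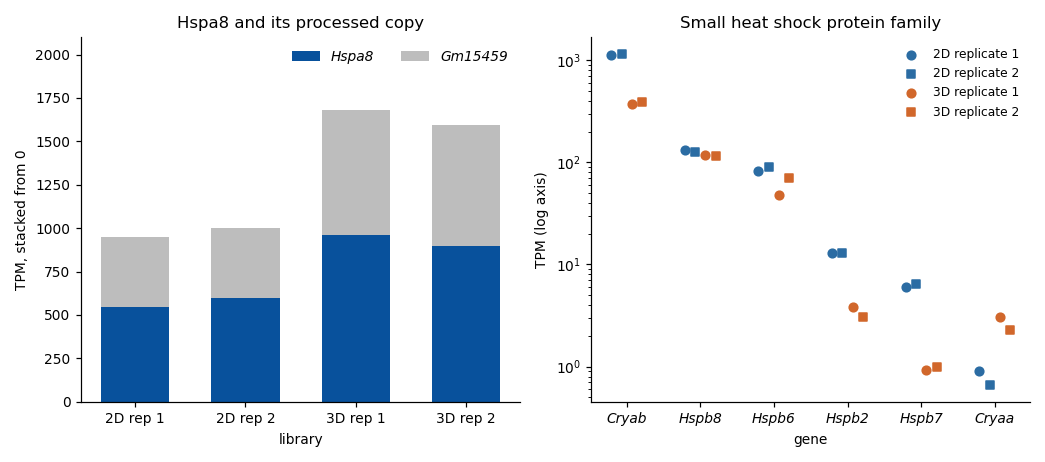
Left, TPM of Hspa8 (blue) and its pseudogene copy Gm15459 (grey), stacked from 0, in each library. Right, TPM on a log axis of 6 small heat shock protein genes in the 2D (blue) and 3D (orange) libraries, with replicate 1 as circles and replicate 2 as squares; Cryab, Hspb8, Hspb6, Hspb2 and Hspb7 have both 3D libraries below both 2D libraries and Cryaa has both above.

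The rest of the small heat shock protein family was then examined, which includes Hspb2 and Hspb7, known from heart and skeletal muscle. These genes, like all others below, are not members, and their adjusted p-values come from limma with Benjamini-Hochberg adjustment over all 14116 genes tested. Of 5 further family genes in the table, 3 passed the filter, 2 were lower and 1 was higher in 3D, with a median of -1.65. Hspb7 and Cryaa passed the filter only through the culture in which they were higher, so these counts and the median rest partly on that selection. Hspb2 (chr9:50751078-50752354) was at 12.9 and 12.8 TPM in 2D and at 3.79 and 3.05 TPM in 3D, lower by -1.65 ± 0.11 (limma adjusted p = 0.000809). Hspb7 was at 5.99 and 6.45 TPM in 2D and at 0.920 and 0.996 TPM in 3D, lower by -1.88 ± 0.11 (limma adjusted p = 0.000577). The lens crystallin Cryaa was at 0.904 and 0.658 TPM in 2D and at 3.08 and 2.27 TPM in 3D, higher by 1.04 ± 0.17 (limma adjusted p = 0.00829). At these low levels the size of the difference depended on the pseudocount. It ran from -2.58 to -0.91 for Hspb7 and from 0.41 to 1.65 for Cryaa over the settings tried, with each call kept. The 9 family genes in the table summed to 1346 and 1391 TPM in 2D and to 548 and 580 TPM in 3D, of which Cryab was 82.6% and 82.9% in 2D and 68.3% and 66.8% in 3D.

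Hspb2 and Cryab are neighbours on chromosome 9 that are transcribed in opposite directions, and the spans listed for them overlap by 1030 bases. The kit kept the strand and the reads were aligned with it, but whether reads of Cryab were counted under Hspb2 was not tested. The calls of Hspb2 in the family, among the neighbours and in the network are therefore not shown to be independent of Cryab. The ratio of Cryab to Hspb2 was 86.2 and 89.8 in 2D and 98.8 and 127 in 3D, so it differed less between the cultures than either level did. On the other side of Cryab, 1110032A03Rik had overlapping groups, at 19.4 and 17.8 TPM in 2D and 22.2 and 18.4 TPM in 3D (log2 difference 0.11 ± 0.11, limma adjusted p = 0.444). Of the 18 nearest neighbours of the members that are not members, 7 passed the filter, 2 of them were lower in 3D, a share close to the 27.1% of all genes tested, and none was higher. The other one was Gipc1, next to Dnajb1, at 143 and 139 TPM in 2D and 126 and 121 TPM in 3D (limma adjusted p = 0.0242).

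Muscle and lens cells are known for high αB-crystallin, and their markers were therefore listed beside Cryab. Of the 7 striated muscle markers found among the deposited genes, 4 passed the filter, all lower in 3D, beside 27.1% of all genes tested. The markers under the filter went both ways. The list summed to 43.6 to 50.8 TPM in 2D and to 22.3 to 23.6 TPM in 3D. Most of this was desmin (Des), at 33.7 and 36.1 TPM in 2D and 18.8 and 17.3 TPM in 3D, while Tnnt3 and Actn2 stayed under 0.52 TPM in every library. Of 6 lens markers 2 passed the filter, Bfsp1 and Cryaa, both higher in 3D, beside 23.4% of all genes tested. However, Cryaa passed only through its level in 3D. The lens list summed to 3.14 to 3.71 TPM in 2D and 10.9 to 13.0 TPM in 3D, with Mip, Crygd and Crybb2 at or near 0. Of 7 smooth muscle and stellate cell markers in the table only Des passed, and the list summed to 36.2 to 40.5 TPM in 2D and 19.8 to 21.1 TPM in 3D, with Acta2 at 0 to 0.279 TPM. No endothelial marker of 5 passed, with sums of 0.878 to 1.54 TPM in 2D and 1.64 to 2.13 TPM in 3D. Of 5 macrophage markers only Cd68 passed and it was not called, and the list summed to 18.6 to 19.5 TPM in 2D and 22.2 to 26.4 TPM in 3D, with Adgre1 listed at 0 in 3 of 4 libraries. Of 5 cholangiocyte markers 4 passed, 2 higher and 2 lower in 3D, beside 23.4% and 27.1% of all genes tested. Their list summed to 2294 to 2401 TPM in 2D and 2269 to 2357 TPM in 3D, with Epcam at or near 0. The part of any of these in the level of Cryab was not tested.

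The genes with the profile most like that of Cryab over the 4 libraries were Arhgef19, 4932443I19Rik, Gm5466, 1700028D13Rik and Marcksl1. The measure was the distance between log2(TPM + 1) values centred on each gene's mean, which was 0.041 for Arhgef19 and 0.055 for Marcksl1, the least alike of these 5. Marcksl1 was at 200.4 and 206 TPM in 2D and at 69.3 and 68.2 TPM in 3D. With 4 libraries this likeness says little beyond a similar difference between the cultures.

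The wider chaperone network was described from 95 genes in 10 lists, of which 94 were in the table and 86 passed the filter. Of these 86, 26 (30.2%) were higher in 3D, beside 23.4% of all genes tested, 24 (27.9%) were lower, beside 27.1%, and 36 were not called. Their median log2 difference was 0.01, beside -0.04 over all genes. Neither share was tested against that of all genes. Under other scalings of the TPM, 25 to 26 network genes were higher and 19 to 21 lower. The counts of the single lists below are small, stand beside the same 23.4% and 27.1%, and were not tested either. With any library left out, the network counts fell, as did the number of all genes called. The median was -0.0053 without 2D replicate 2 and -0.0013 without 3D replicate 2, so its sign rests on single libraries. Only 6 of the 86 were called with a difference past 1 on the log2 scale, 3 in each direction. With a pseudocount of 5 in place of 1, Hspb7, Cryaa and Hspa12a fell under that size and Flnc, Hspb2 and Hspa4l remained. The lists were written with earlier results of these data known.

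**Figure D4:**
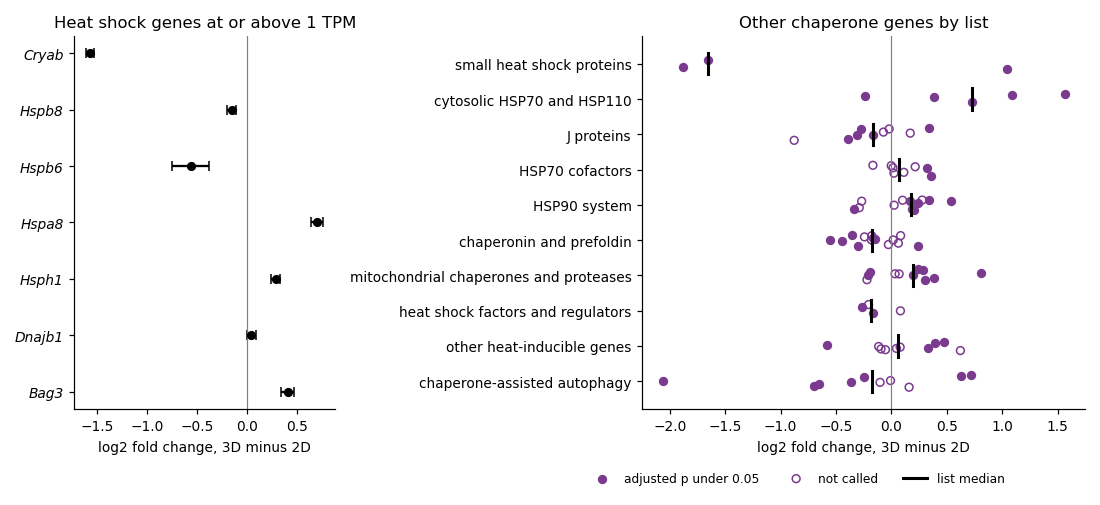
Left, log2 difference, 3D minus 2D, of the 7 genes above 1 TPM, with bars for the standard error of the limma fit. Right, the same difference for each tested gene of the 10 lists of other chaperone genes, filled where the limma adjusted p was under 0.05, with a black line at the median of each list; the genes past 1 in absolute size are Flnc, Hspb7 and Hspb2 on the left and Hspa12a, Hspa4l and Cryaa on the right.

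Of 5 further cytosolic HSP70 and HSP110 genes that passed the filter, 4 were higher and 1 was lower, with a median of 0.73. Hspa4l, an HSP110 relative of Hsph1, was at 62.9 and 55.0 TPM in 2D and at 127 and 125 TPM in 3D, higher by 1.08 ± 0.075 (limma adjusted p = 0.000808). Hspa12a, a distant HSP70 relative, rose from 2.57 and 2.47 TPM to 9.89 and 8.95 TPM (limma adjusted p = 0.000683). Hspa4, another HSP110 protein, had its 3D libraries at 239 and 241 TPM against 182 and 185 TPM (limma adjusted p = 0.00172), and Hspa2 had them at 7.74 and 7.92 TPM against 4.21 and 4.45 TPM (limma adjusted p = 0.00343). Hspa14, which works at the ribosome, was lower, at 59.6 and 56.8 TPM against 68.4 and 69.1 TPM (limma adjusted p = 0.0167), a call lost under 3 of 15 alternatives.

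Among J proteins, 1 of 9 was higher and 4 were lower, with a median of -0.16. Dnaja1 was the higher one, at 149 and 164 TPM in 2D and 191 and 204 TPM in 3D (limma adjusted p = 0.0134), a call lost without 3D replicate 2. Dnajc2, a ribosome-bound J protein that works with Hspa14, was lower, at 63.4 and 61.1 TPM in 2D and 48.3 and 45.9 TPM in 3D (limma adjusted p = 0.00494). Dnajc5 was uneven, at 94.95 and 219 TPM in 2D and 80.1 and 76.0 TPM in 3D, and was not called (limma adjusted p = 0.128). With either 2D library left out it was called lower, by -1.47 without 2D replicate 1 and by -0.28 without 2D replicate 2. Of 8 HSP70 cofactors 2 were higher and none was lower, with a median of 0.07. St13, which stabilises HSP70 bound to its client, was at 277 and 270 TPM in 2D and 349 and 349 TPM in 3D (limma adjusted p = 0.00212), and Stub1, the ubiquitin ligase CHIP, was at 118 and 116 TPM in 2D and 144 and 149 TPM in 3D (limma adjusted p = 0.00395). None of the other 5 Bag genes was called. Bag2 and Bag4 had both 3D libraries above both 2D libraries, as Bag3 had, and Bag1, Bag5 and Bag6 had overlapping groups.

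Of 12 genes of the HSP90 system, 6 were higher and 1 was lower, with a median of 0.17. The immunophilin Fkbp4 was at 162 and 164 TPM in 2D and 236 and 239 TPM in 3D, higher by 0.54 ± 0.036 (limma adjusted p = 0.000784). The constitutive Hsp90ab1 was at 1449 and 1534 TPM in 2D and 1725 and 1661 TPM in 3D (limma adjusted p = 0.0242), a call lost under 5 of 15 alternatives. The inducible Hsp90aa1 was at 1772 and 1283 TPM in 2D and 1188 and 1279 TPM in 3D and was not called (limma adjusted p = 0.192), except without 2D replicate 2 (-0.52, limma adjusted p = 0.0101). Of the 14 chaperonin and prefoldin genes 1 was higher and 6 were lower, with a median of -0.17. Tcp1, a subunit of the chaperonin that folds actin and tubulin, was at 341 and 344 TPM in 2D and 265 and 270.3 TPM in 3D (limma adjusted p = 0.002), and the prefoldin subunit Pfdn6 was at 129 and 139.8 TPM in 2D and 94.7 and 88.0 TPM in 3D (limma adjusted p = 0.00305).

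Of 11 mitochondrial chaperones and proteases 6 were higher and 2 were lower, with a median of 0.19. Hspa9, the mitochondrial HSP70, was at 858 and 875 TPM in 2D and 1058 and 1052 TPM in 3D, higher by 0.28 ± 0.031 (limma adjusted p = 0.00267). Clpx, the unfolding subunit of a matrix protease, was at 27.7 and 23.1 TPM in 2D and 45.4 and 44.7 TPM in 3D (limma adjusted p = 0.00345), and its protease partner Clpp was also higher (limma adjusted p = 0.0037). The chaperonin gene Hspd1 was at 393 and 407 TPM in 2D and 409.9 and 409 TPM in 3D and was not called (limma adjusted p = 0.484).

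Of 4 heat shock factor and regulator genes that passed the filter, 2 were lower and none was higher, with a median of -0.18. Hsf1, the main activator, was at 52.9 and 63.6 TPM in 2D and 43.1 and 58.2 TPM in 3D, with overlapping groups (limma adjusted p = 0.358). Hsf4 was lower, at 36.6 and 36.9 TPM against 30.7 and 30.1 TPM in 3D (limma adjusted p = 0.0148), a call lost when either 3D library was left out. The HSF1-binding protein gene Hsbp1 was also lower (limma adjusted p = 0.0285), a call lost under 8 of 15 alternatives. Of 10 other heat-inducible genes 3 were higher and 1 was lower, with a median of 0.06. Zfand2a was at 145 and 140.3 TPM in 2D and 203 and 194 TPM in 3D, higher by 0.47 ± 0.045 (limma adjusted p = 0.00187). Mrpl18, a mitochondrial ribosomal protein gene, was lower, at 116 and 111 TPM against 73.9 and 77.0 TPM in 3D (limma adjusted p = 0.00133). Serpinh1, the collagen chaperone HSP47, was at 219.5 and 130.0 TPM in 2D and 113 and 221 TPM in 3D, so each culture had 1 high and 1 low library (limma adjusted p = 0.862).

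Chaperone-assisted selective autophagy is the route in which Bag3 and Hspb8 take part. Of 10 further genes of that route 2 were higher and 5 were lower, with a median of -0.18. The lower ones included the actin cross-linkers Flnc, the muscle filamin and a known client of Bag3, and Flna. Flnc was at 376 and 443 TPM in 2D and 98.5 and 95.1 TPM in 3D, lower by -2.06 ± 0.086 (limma adjusted p = 0.000323). Flna was lower by -0.70 ± 0.055 (limma adjusted p = 0.0011). Of the autophagy receptors and the membrane protein they bind, Sqstm1 was lower, at 1287 and 1265 TPM against 1065 and 1079 TPM in 3D (limma adjusted p = 0.0036), and Map1lc3b was higher, at 121 and 121 TPM against 203 and 196 TPM in 3D (limma adjusted p = 0.000544). Nbr1 was higher, at 210.1 and 199 TPM against 266 and 378 TPM in 3D (limma adjusted p = 0.0362), a call lost under 6 of 15 alternatives. Bag3 itself had the higher level in 3D and Hspb8 the lower.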

How the data were processed

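RNA-seq libraries of AML12 cells, 2 from 2D and 2 from 3D cultures, were made with a stranded kit. Per the methods and the submitters' processing notes, adapters and poor bases were removed by the authors (cutadapt 1.8.3, Trimmomatic 0.36), reads were placed on GRCm38 by HISAT2 2.0.5, and StringTie 1.3.4 quantified the genes of Ensembl release 93. TPM per library were deposited by the authors, with replicates not pooled. The same table holds a log2 fold change and a p-value from the authors' comparison by DESeq2 on read counts, which were not used here.

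TPM keep no sequencing depth, so no interval that needs counts was given. A listed 0 may be a failed estimate: mt-Atp6, which every cell uses, was listed at 90.9, 0.0004, 0.035 and 0.041 TPM.

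Libraries were grouped by the culture in the labels. Genes with a mean of at least 1 TPM were fitted by limma 3.58.1 (R 4.3.3) on the log2(TPM + 1) scale (trend and robust variance, two-sided, Benjamini-Hochberg adjustment over 14116 genes), and an adjusted p under 0.05 was a call. Fold changes on this scale understate the change of low genes. An exact permutation test of 2 against 2 libraries cannot go below 0.333 and was not used. Across tested genes the Pearson correlation was 0.991 and 0.992 within cultures and 0.951 to 0.952 between them. The script was tested on simulated data.

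The members and lists were chosen with earlier results of these data known. Named genes were the members, the 3 highest and up to 3 largest called changes of each list (at least 5 TPM in the higher culture), the nearest genes, the 5 genes most like Cryab and the highest markers; Tnnt3, Actn2, Mip, Crygd, Crybb2, Acta2, Adgre1, Epcam, Serpina1a, Fgb, Cps1 and Apoa2 are named as markers at or near 0. Bag2, Bag4 and Bag5 were named after their values were seen. Hspb3, Myh1, Lrat and Gm9817 were not analysed here. A gene that the rule names is not reported here. Copies were sought with BLAST+ 2.17.0 among GENCODE M21 transcripts, at 95% identity or more over at least 400 bases. Alternatives were other pseudocounts, filters, scalings and variance models, a replicate block, summed copies and each library left out. Figures were drawn with matplotlib 3.10.9.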

Additional observations from a re-analysis of the deposited data

How the results depend on the processing

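For the 7 members above 1 TPM only the other scalings, and for Hspa8 its sum with its copies, could have changed direction. The libraries of these members do not overlap between the cultures, and a pseudocount keeps their order. Under the other scalings and that sum none did. The values that moved by over 1 SD between replicates were Hspb8 at -0.12 and Hsph1 at 0.33 with quantile normalization, and Dnajb1 at 0.06 with median centring and 0.07 with rescaled TPM. Hspb6 ranged from -0.83 to -0.30 with 1 library left out. With each library left out in turn, the number of genes called fell from 7122 to between 4720 and 5954, the lowest without 3D replicate 1. Over the same fits the chaperone network had 31 to 45 genes called, with 17 to 24 higher and 14 to 22 lower in 3D, and all 3 minima were without 3D replicate 2. These fits leave 1 culture with a single library, which is assumed to vary like the other culture. Of the 40 named network genes called, 26 were called under every alternative that could be run and 14 lost the call under at least 1. Sign changes were seen only for genes not called, when 1 library was left out: Bag6 ranged from -0.057 to 0.085, Serpinh1 from -0.57 to 0.38, Cct5 from -0.014 to 0.046, Hsf1 from -0.42 to 0.0054 and Bag1 from -0.015 to 0.059. The cause was not tested. The network median ranged from -0.0053 to 0.033 over these fits. Hspb7 and Cryaa fell under the filter of 5 TPM. With the replicate block 6248 genes were called, and in the network 23 were higher and 19 lower. The network had 26 higher and 20 lower with median centring, 26 and 19 with quantile normalization, and 25 and 21 with rescaled TPM. Over all genes, 3819 were lower in the main fit and 3692, 3679 and 3572 under these scalings. Without the filter the network had 24 higher and 18 lower, and with constant prior variance 22 and 18. Deviations of same-numbered libraries correlated at -0.055 across genes, so the numbers were not taken to pair the libraries. Summing Hspa8 with its copies, which was chosen after seeing the data, left the network counts at 26 and 24. TPM limit what can be said of Hspb1, Hspa1a and Hspa1b, whose depth is unknown.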
